A study of Homo sapiens with 24 samples.

Results

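H3K27ac, the acetylation of histone H3 that marks active promoters and enhancers, was compared between TGFβ-treated and untreated PANC-1 cells, a human line derived from a ductal carcinoma of the pancreas. The comparison used the 4 H3K27ac ChIP-seq peak lists labelled siControl and siControl_TGFb, 2 libraries each, out of 24 samples in the series, of which 18 have a peak list. By their labels all 4 libraries came from cells given a control siRNA. The siControl cells were otherwise untreated, and the siControl_TGFb cells (the TGFβ libraries below) received 10 ng/ml TGFβ for 48 hours. The other libraries of the series cover H3K4me3, H3K27me3, inputs and cells given an siRNA against PHF13 together with TGFβ. The 4 lists merged into 38025 regions, of which 17115 were proximal (less than 5000 bp from the start site, TSS, of a protein-coding transcript) and 20910 distal. The labels do not say whether the duplicates came from separate cultures, so every test measures only the spread between libraries, which may be technical.

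Peak names inside the deposited lists go against the labels. The siControl lists hold peaks named NC1 and NC2. The lists labelled siControl_TGFb hold peaks named 3AT1 and 3AT2, whereas NCT1 and NCT2 stand in the lists labelled siPHF13_TGFb, for all 3 histone marks. In the study's own text NCT abbreviates control siRNA with TGFβ, and 3AT is explained in none of the sources used here. Groups were taken from the labels, so which siRNA the TGFβ libraries received cannot be settled here, while both candidate groups are labelled as TGFβ-treated. The H3K27ac list named NCT1 holds 6004 peaks and NCT2 holds 32403. With both NCT lists in place of the TGFβ libraries, 47 regions were gained (0.138% of all) and 64 were lost (0.188%), 8 promoters were longer (0.0644%) and 28 shorter (0.225%). With NCT2 against siControl replicate 2 alone, 11992 regions were found in NCT2 only (35.6%) and 1534 in siControl only (4.55%), 11856 promoters were longer (95.5%) and 548 shorter (4.42%). Of the regions gained in the labelled comparison below, 77.1% also held a peak in NCT2 and 1.01% in NCT1.

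TGFβ binds a receptor kinase pair that phosphorylates SMAD2 and SMAD3, which enter the nucleus with SMAD4 and act at enhancers beside factors such as AP-1. In carcinoma cells the pathway is known for driving the epithelial-mesenchymal transition (EMT), in which cell junction genes are switched down and genes for matrix, integrins and the contractile cytoskeleton are switched up. H3K27ac spreads over enhancers and promoters in use, so that both the presence of a peak and its width are readouts of the mark.

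The DNA under regions that turn up in the results is shown first, as 200-base windows of the GRCh37 plus strand that hold no annotated exon. Capitals mark a TEAD motif (GGAATG or its reverse CATTCC), an AP-1 motif (TGANTCA, N being any base) or a SMAD site (CAGACA or its reverse TGTCTG). TPM1, chr15:63221155-63221354, is the intergenic region with the greatest length of gained distal H3K27ac. SGK1, chr6:134757218-134757417, SMAD3, chr15:67471511-67471710, and SUSD1, chr9:114928506-114928705, come from the longest gained region next to 3 genes with many of them. PMEPA1, chr20:56273892-56274091, lies in an intron of a SMAD target gene where the peak was lower after TGFβ. SLCO4A1, chr20:61203209-61203408, is an intergenic lost region with none of the 3 motifs.
TPM1: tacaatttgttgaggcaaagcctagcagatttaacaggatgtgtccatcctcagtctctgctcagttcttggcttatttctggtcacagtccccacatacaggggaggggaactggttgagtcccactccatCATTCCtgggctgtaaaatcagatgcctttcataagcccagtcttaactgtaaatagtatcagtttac
SGK1: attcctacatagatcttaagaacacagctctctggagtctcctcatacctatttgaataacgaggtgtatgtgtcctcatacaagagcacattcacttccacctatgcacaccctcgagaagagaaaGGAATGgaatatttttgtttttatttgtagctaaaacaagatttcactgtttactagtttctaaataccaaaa
SMAD3: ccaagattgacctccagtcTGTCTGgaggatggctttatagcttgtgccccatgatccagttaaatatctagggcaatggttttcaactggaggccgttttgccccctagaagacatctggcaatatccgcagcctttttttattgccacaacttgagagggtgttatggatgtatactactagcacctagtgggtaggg
SUSD1: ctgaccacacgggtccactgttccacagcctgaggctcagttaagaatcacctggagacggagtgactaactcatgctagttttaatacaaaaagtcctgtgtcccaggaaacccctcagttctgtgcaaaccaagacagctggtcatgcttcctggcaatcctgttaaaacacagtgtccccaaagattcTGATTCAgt
PMEPA1: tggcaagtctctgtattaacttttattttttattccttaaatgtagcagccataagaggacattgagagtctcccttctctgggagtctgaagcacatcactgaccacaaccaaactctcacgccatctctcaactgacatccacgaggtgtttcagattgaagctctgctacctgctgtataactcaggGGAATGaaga
SLCO4A1: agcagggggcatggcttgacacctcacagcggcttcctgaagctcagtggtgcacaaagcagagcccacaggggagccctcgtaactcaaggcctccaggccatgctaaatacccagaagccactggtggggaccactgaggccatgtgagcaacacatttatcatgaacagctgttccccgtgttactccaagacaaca
A motif in a window is a match of letters only. Among 300 bp windows centred on the peak summit and searched on both strands, 12.9% of the 2263 gained distal regions held the AP-1 letters against 12.52% of all distal regions. The TEAD letters were in 18.4% of both. The SMAD site was in 22.3% against 20.4%. Its 8-letter palindrome GTCTAGAC was in 0.354% against 0.172%, which is 8 and 36 windows. At the 916 gained proximal regions the AP-1 letters were in 8.41% against 5.30% of all proximal regions. The median GC content was 55.0% against 62.0%. Proximal regions found only in TGFβ replicate 1 were close to the gained ones, at 7.73% and 55.7%. Those in siControl replicate 2 but not in TGFβ replicate 2 stood at 6.38% and 61.3%.

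The depth of the libraries in reads is unknown, since the files hold peaks only, and the lists differ in length. siControl replicates 1 and 2 held 19413 and 25929 peaks and covered 11.02 and 17.2 Mb. TGFβ replicates 1 and 2 held 36104 and 27110 peaks and covered 31.9 and 18.8 Mb. TGFβ replicate 1 stood apart from the other 3 libraries, and TGFβ replicate 2 was close to siControl replicate 2. Counts of regions and promoters are therefore also given with every list cut to its 19413 peaks of lowest q value (lists of equal length) and for the replicate 2 libraries alone. Heights, clusters and the other marks were not computed for the replicate 2 libraries alone. The line's own markers carried the mark in all 4 libraries at KRT8, KRT18 and KRT19, keratins of simple epithelia, and at VIM, the mesenchymal filament protein. KRT7 had no promoter peak in siControl replicate 1. Of 17 annotated markers of other lineages, 2 had a promoter peak, GFAP with 236 bp and SYP with 700 bp, both in TGFβ replicate 1 only, and the remaining ones, INS and ALB among them, had none.

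More H3K27ac regions were gained than lost with TGFβ, and most gained regions were distal, as were most lost ones. A gained region holds a peak in both TGFβ libraries and in neither siControl library, which is a count and not a test. There were 3179 gained regions (8.36% of all), 916 proximal and 2263 distal, against 48 lost regions (0.126%), 10 proximal and 38 distal. The distal share of gained regions was 71.2% (95% exact binomial interval 69.6 to 72.8, counting error only), where 20910 of all 38025 regions were distal. Regions found only in TGFβ replicate 1 were distal in 7992 of 11276 cases. Those in siControl replicate 2 but not in TGFβ replicate 2 were distal in 2384 of 3653. With lists of equal length 1348 regions were gained (5.98%) and 312 lost (1.38%). Of these 1348 regions, 623 held a peak in the full list of siControl replicate 2, and 725 held none in either full siControl list. Only 724 regions were gained in both settings, 22.8% of the first list and 53.7% of the second. Between the replicate 2 libraries 6482 regions were found in TGFβ only (21.2%) and 5039 in siControl only (16.4%). That pair has lists of similar length but 1 library per group, so the part of either in these counts cannot be told apart.

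Covered length gave the same order of libraries. Proximal regions covered 7.39 and 10.9 Mb in siControl and 17.8 and 11.6 Mb in TGFβ, a log2 difference of 0.68. Distal regions covered 3.62 and 6.27 Mb in siControl and 14.1 and 7.17 Mb in TGFβ, a log2 difference of 1.07. The groups did not overlap, and the two-sided exact permutation p was 0.333 for both, the smallest that 2 against 2 libraries allow. The distal part of the covered length was 32.9% and 36.5% in siControl and 44.1% and 38.2% in TGFβ (exact permutation p = 0.333). Cutting the lists to equal length gave log2 differences of 0.57 and 0.78, and between the replicate 2 libraries they were 0.08 and 0.19.

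**Figure D1:**
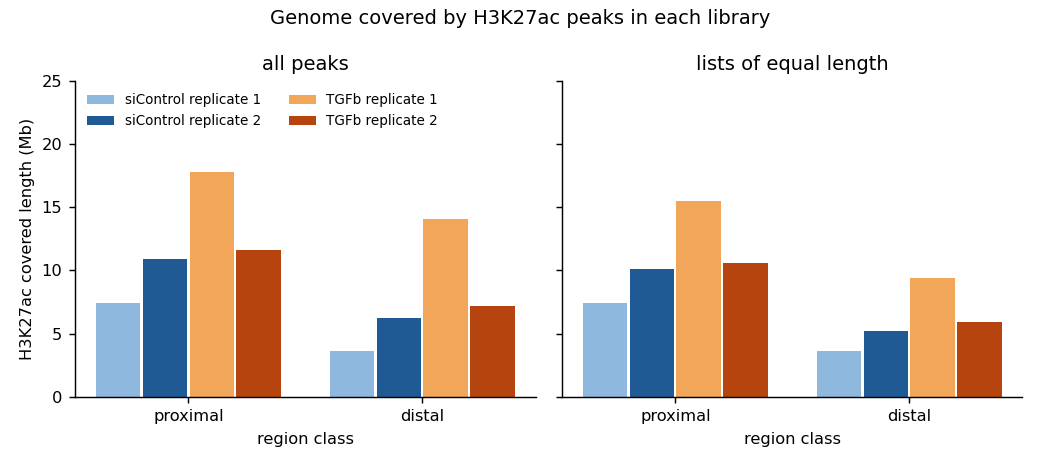
Length of the genome covered by H3K27ac peaks (Mb, vertical axis) in proximal and distal regions, 1 bar per library, with all peaks (left) and with lists of 19413 peaks each (right). TGFβ replicate 1 is the highest bar in every group, at 17.8 Mb proximal and 14.1 Mb distal with all peaks, and TGFβ replicate 2 lies just above siControl replicate 2.

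Gained regions were least frequent on start sites. Regions holding a coding TSS were gained in 2.68% of cases, regions within 1000 bp of one in 8.14%, regions at 5000 to 20000 bp in 11.7%, and regions beyond 500000 bp in 4.52%. Of the gained distal regions 79.5% lay within 100000 bp of a coding TSS, as did 72.2% of the distal regions found in all 4 libraries. Gained distal peaks were weak within their own lists. Their median was 633 bp and −log10 q of 9.43 in TGFβ replicate 1, and 290 bp and 3.87 in TGFβ replicate 2, where it ranked at the 21.9th percentile of that list. Distal regions found in all 4 libraries ranked at the 69.9th percentile there.

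**Figure D2:**
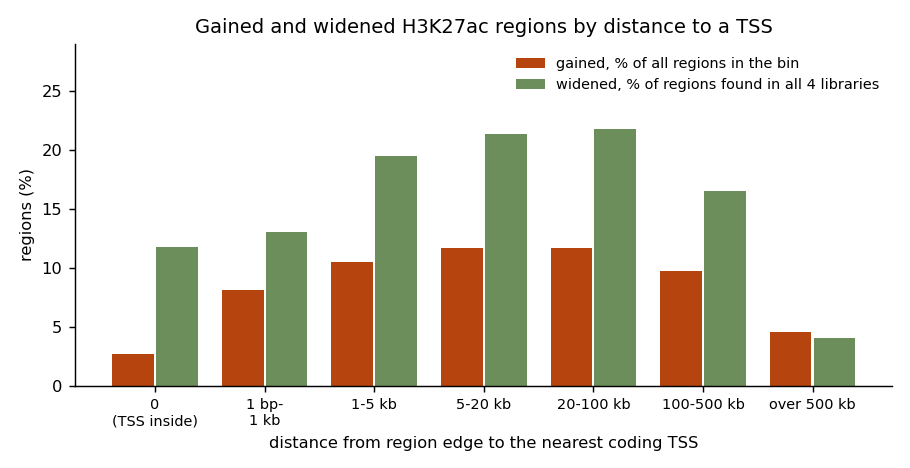
Share of H3K27ac regions that were gained (percent of all regions in the bin) and widened (percent of regions found in all 4 libraries), by distance from the nearest coding TSS in bp. Both are lowest at the start site (2.68% and 11.7%) or beyond 500000 bp (4.52% and 4.01%) and highest between 5000 and 100000 bp.

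With all peaks, TGFB2 and SMAD3 were among the 12 genes with most gained regions nearby. A coding gene was nearest to at least 1 gained region in 2253 of 12866 cases (17.5%), and 206 genes had 3 or more. KCNMA1, a calcium-activated potassium channel, and SGK1, a serum- and glucocorticoid-induced kinase, had 9 each, followed by 7 each at TGFB2, GADD45A, MICAL2, TNS3, SMAD3 and MAML3, and 6 each at CSF2, SUSD1, NAV1 and TRIO. In all, 52 merged regions were nearest to KCNMA1 and 52 to SMAD3, but 7 to CSF2, which encodes the cytokine GM-CSF. In lists of equal length the counts were 2 at KCNMA1, 1 at SGK1, 4 at TGFB2 and 2 at SMAD3. The 12 genes with most gained regions in that setting began with KLF6 and SLC35F3 at 5 each. Of the 12 genes named above, only TGFB2 and MICAL2 were among them. At TGFB2 (ENSG00000092969), which encodes a TGFβ ligand, the gained regions began at the TSS, chr1:218518392-218519716, which siControl left uncovered and TGFβ covered over 1208 and 871 bp. At SMAD3, 6 of the 7 lay in introns of the gene, among them chr15:67471382-67472149 with 768 and 529 bp.

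With all peaks, the gained region with the greatest mean covered length in TGFβ lay 112693 bp from the nearest coding TSS, that of TPM1, a tropomyosin of actin filaments. It spans chr15:63219954-63222138, is intergenic, and covered 0 and 0 bp in siControl and 2185 and 2050 bp in TGFβ (its sequence is given above). The lists named NCT1 and NCT2 covered 322 and 2082 bp of it. The next gained distal regions by length were nearest to AVL9 with 2424 and 1696 bp in TGFβ, JAK1, the cytokine receptor kinase, with 2917 and 1153 bp, and DDAH1 with 2243 and 1813 bp. An intronic region of KCNMA1 and one of RNF121 completed the first 6. TPM1, AVL9, JAK1, DDAH1, KCNMA1 and RNF121 also held gained regions with lists of equal length. Among gained proximal regions, one over a TSS of IGF1R, the receptor for insulin-like growth factor 1, spanned chr15:99432756-99434264 and covered 1509 and 1355 bp in TGFβ against 0 and 0 bp. Those at SPATS2L, CLDN14 (a claudin of tight junctions), CD59, MANBAL and PLCH2 had between 873 and 2128 bp in each TGFβ library and 0 in siControl.

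Lost regions were few and short. The longest was nearest to ANKRD10, 49924 bp away at chr13:111617340-111618646, with 626 and 1273 bp in siControl and 0 in both TGFβ libraries. It held 1214 bp in NCT2. The region nearest to SLCO4A1, an organic anion transporter, had 395 and 1013 bp in siControl and 0 in TGFβ, and 0 in both NCT lists. TSPAN18, F2 (prothrombin), IL17REL and FLYWCH1 followed with 218 to 741 bp in the siControl libraries. Among lists of equal length the longest lost regions were at the TSS of DLK2 (1096 and 1089 bp in siControl) and, among others, near ANKRD50, AGR2, ANKRD10 and MARCHF8. Of the 312 lost regions of that setting, 285 held a peak in the full list of TGFβ replicate 1 and 24 held none in either full TGFβ list.

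Regions present in all 4 libraries were mostly wider with TGFβ. Of 14135 such regions 7778 were wider in both TGFβ libraries than in both siControl libraries (55%) and 62 were narrower, with a median log2 width difference of 0.49. A widened region was also longer by at least 1 on the log2 scale, and 2074 met this (14.7%) against 4 narrowed ones (0.0283%). The lowest widened region stood at 1.00 and the highest outside the rule at 0.999771. At equal list length 1722 were widened (13.5%) and 4 narrowed (0.0315%), and 1517 regions were widened in both settings. Between the replicate 2 libraries 11053 shared regions were wider and 8022 narrower, with a median of 0.07. In limma on log2 width with Benjamini-Hochberg adjustment no region passed an adjusted p of 0.05 (0%). At an unadjusted p of 0.05, 1484 were wider (10.5%) and 2 narrower (0.0141%). These counts depended on the scaling, with 857 wider and 296 narrower when each library was centred on its median and 770 and 456 after quantile normalization. The largest difference was at the TSS of TNIP1, an inhibitor of NF-κB signalling, chr5:150472373-150474668, with 161 and 188 bp in siControl and 2296 and 1339 bp in TGFβ (log2 difference 3.33, SE 0.37, limma adjusted p = 0.458). SERINC3, GGT5, RTL1, CYB5B and H2BC12L followed with log2 differences of 3.31 to 3.07 and the same adjusted p. None of these 6 could count as widened with lists of equal length, as the cut removed their siControl replicate 2 peaks. Those peaks had −log10 q of 2.41 to 3.70, and that list was cut at 4.60. In that setting the largest log2 differences were 3.29 at the TSS of MRTFA, a coactivator of serum response factor, and 2.95 near FKBP1A. FKBP1A binds the TGFβ type I receptor. SEC16B, AFDN, MEGF6 and ZDHHC7 followed. The 4 narrowed regions were nearest to FOXD4L5, ZNF33B, MMEL1 and MAGI2.

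At promoters, the length of H3K27ac within 5000 bp of any coding TSS of a gene was longer in both TGFβ libraries for 6820 of 12633 genes with a peak (54%) and shorter for 7 (0.0554%). With lists of equal length it was longer for 6040 (52.6%) and shorter for 90 (0.784%). Between the replicate 2 libraries 7134 were longer (56.5%) and 4709 shorter (37.3%). By the rule the 6820 genes are all among these 7134, so the pair is no separate check on them. The same holds for the gene lists below with all peaks. In limma on log2(bp + 100) with Benjamini-Hochberg adjustment no gene passed (0%), with 805 genes longer (6.37%) and 1 shorter (0.00792%) at an unadjusted p of 0.05. The counts of each gene list below are to be read against these shares, and no member of any list passed the adjusted test.

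Components of the TGFβ pathway had longer promoter H3K27ac in both TGFβ libraries for 11 of 24 genes with a peak (10 of 22 at equal list length, and 11 longer and 12 shorter between the replicate 2 libraries). Among the ligands, TGFB2 covered 189 and 0 bp in siControl and 2119 and 1340 bp in TGFβ (log2 difference 3.39, SE 0.66, limma adjusted p = 0.511). TGFB3 covered 0 and 0 bp in siControl and 869 and 383 bp in TGFβ. The activin receptor ACVR2B likewise had 0 and 0 bp against 1013 and 336 bp. SMAD4, the common partner of the receptor-activated SMADs, had 288 and 949 bp against 1588 and 1559 bp (log2 difference 1.39, SE 0.59). LTBP3, which binds latent TGFβ in the matrix, had 1104 and 1959 bp against 4338 and 3302 bp. These 5 promoters were picked for not overlapping between the groups. In NCT2 they covered between 701 and 4563 bp, while NCT1 had no peak at any of them.

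TGFβ-SMAD target genes were longer for 12 of 27 genes with a peak (10 of 27 at equal list length). TGFBI, a secreted matrix protein induced by TGFβ, covered 488 and 1162 bp in siControl and 3911 and 1765 bp in TGFβ. ID3, a helix-loop-helix inhibitor, had 177 and 582 bp against 2649 and 894 bp. LTBP2 had 0 and 358 bp against 1344 and 623 bp, and PDGFB, a growth factor chain, 350 and 730 bp against 2967 and 971 bp. BHLHE40 was barely separated, with 1174 bp in siControl replicate 2 and 1178 bp in TGFβ replicate 2. SMAD7 and PMEPA1, both feedback inhibitors of the pathway, overlapped between the groups. The 30 genes together covered 22.2 and 40.3 kb in siControl and 75.7 and 40.2 kb in TGFβ, so that the replicate 2 libraries were level, and in that pair 12 genes were longer and 15 shorter. Gained regions, 41 in all, were nearest to 17 of the 28 genes of the list that were nearest to any region, where 17.5% of all such genes had one. Every other list except AP-1 subunits and partners also lay above that share. TEAD factors and YAP targets stood at 8 of 14, and pancreatic lineage factors at 5 of 11. Matrix and adhesion genes stood at 18 of 40, epithelial genes at 10 of 27 and markers of other lineages at 2 of 7 (CDH5 and VWF). AP-1 subunits and partners stood at 2 of 20 (ATF3 and FOSL2). The number of regions per gene was not matched.

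Of the EMT transcription factors 2 of 9 with a peak were longer, SNAI1 and TWIST2. SNAI1, a repressor of E-cadherin, covered 229 and 0 bp in siControl and 1907 and 779 bp in TGFβ (log2 difference 2.87, SE 0.80, limma adjusted p = 0.511), and TWIST2 covered 0 and 0 bp against 1236 and 522 bp. At equal list length 0 of 7 were longer, and between the replicate 2 libraries 2 were longer and 5 shorter. Mesenchymal and contractile genes were longer for 6 of 19 (8 of 17 at equal list length, and 6 longer and 11 shorter in the replicate 2 pair). TGM2, a matrix cross-linking transglutaminase, had 0 and 0 bp in siControl and 1481 and 910 bp in TGFβ, with the lowest limma adjusted p of any gene, 0.405. CDH2 (N-cadherin) had 0 and 354 bp against 1551 and 380 bp, and PLAUR, the urokinase receptor, 455 and 695 bp against 1596 and 1257 bp. VIM had 1330 and 1794 bp against 3175 and 1344 bp and overlapped. Extracellular matrix and adhesion genes were longer for 18 of 31 (12 of 24 at equal list length, and 19 longer and 8 shorter in the replicate 2 pair), among them MMP2, a gelatinase, with 209 and 0 bp against 1546 and 664 bp, COL7A1 with 0 and 201 bp against 1716 and 453 bp, and the integrin ITGB3 with 0 and 172 bp against 1148 and 539 bp.

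Epithelial genes were longer for 11 of 25 and shorter for 0 with all peaks. OCLN, a tight junction protein, covered 222 and 813 bp in siControl and 3009 and 1841 bp in TGFβ. KRT7 had 0 and 444 bp against 2165 and 1033 bp, and CGN (cingulin) 0 and 0 bp against 1209 and 265 bp. CDH1 (E-cadherin) had no promoter peak in any of the 4 libraries. With lists of equal length 10 of 20 were longer and 1, JUP (plakoglobin), was shorter, and in the replicate 2 pair 11 were longer and 10 shorter. AP-1 subunits and partners were longer for 7 of 17 (5 of 16 at equal list length, 8 and 7 in the pair), with ATF3 at 218 and 270 bp against 1978 and 646 bp and BATF2 at 0 and 235 bp against 1058 and 1016 bp. TEAD factors and YAP targets were longer for 10 of 15 (8 of 15 at equal list length, 10 and 5 in the pair), with AMOTL2 at 857 and 890 bp against 2115 and 1853 bp. Pancreatic lineage factors were longer for 4 of 9, SOX9, PDX1, FOXA3 and HES1 (2 of 5 at equal list length, 4 and 3 in the pair). SOX9, a duct factor, had 1030 and 1612 bp against 3317 and 1845 bp.

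**Figure D3:**
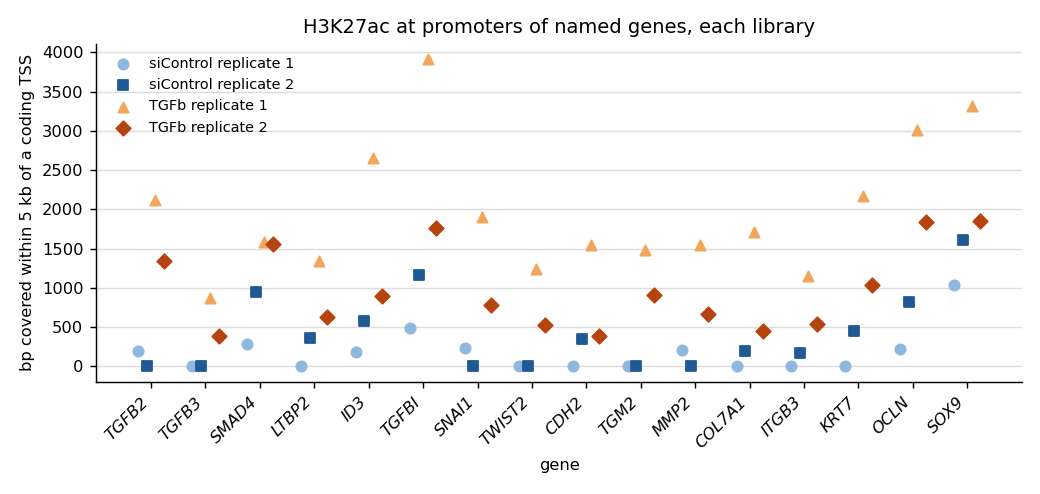
Length of H3K27ac within 5000 bp of a coding TSS (bp, vertical axis) for named genes, 1 point per library. The genes shown were picked because both TGFβ points lie above both siControl points, so this separation is not a finding. TGFβ replicate 1 is the higher of the 2, with 1588 against 1559 bp at SMAD4 and 3911 against 1765 bp at TGFBI.

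**Figure D4:**
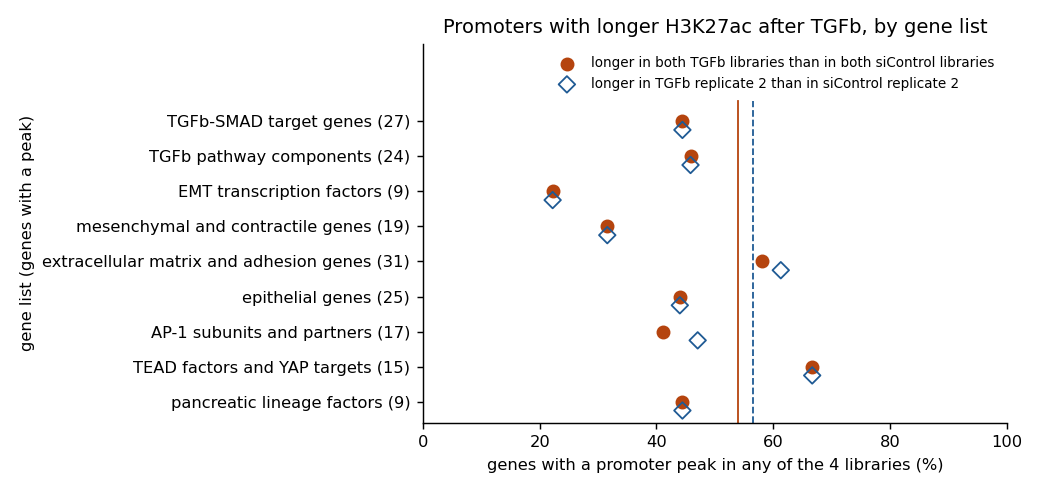
Percent of the genes with a promoter peak whose H3K27ac was longer, by gene list (genes with a peak in brackets). Circles compare both TGFβ with both siControl libraries, diamonds the replicate 2 libraries, and the lines give the shares over all promoters (solid 54%, dashed 56.5%). By the rule, every gene counted in a circle is also counted in the diamond of its list. The lists lie on both sides of the lines, from 22.2% for EMT transcription factors to 66.7% for TEAD factors and YAP targets.

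The height of peaks was examined beside their width. It was taken as the largest fold enrichment of a library in a region, a readout added after the data were seen. Over the 14135 regions in all 4 libraries the median height was 5.15 and 6.11 in siControl and 6.92 and 5.80 in TGFβ. It was higher in both TGFβ libraries at 3642 regions (25.8%) and lower at 1465 (10.4%). After quantile normalization 2595 were higher (18.4%) and 3057 lower (21.6%). In limma on the normalized values with Benjamini-Hochberg adjustment no region passed (0%), with 670 higher (4.74%) and 540 lower (3.82%) at an unadjusted p of 0.05. Near SMAD target genes 33 of 87 regions were lower and 14 higher before normalization, and 30 lower and 13 higher after it. These 87 regions were nearest to 26 genes, and HMGA2 and TGIF1 each held 6 of the lower ones before normalization. Near mesenchymal and contractile genes 15 of 29 were lower and 2 higher before normalization, and 15 and 5 after it. Near TEAD factors and YAP targets 15 of 31 were lower and 8 higher, and 12 and 6 after normalization. Regions near epithelial genes were lower in 6 of 37 cases and higher in 9. After normalization 10 were lower and 9 higher, so that their order turned with the scaling. Near matrix and adhesion genes 20 of 57 were lower and 14 higher, and 18 and 12 after normalization. Before normalization, TGFβ pathway components had 13 higher and 10 lower regions, and EMT transcription factors 5 and 2. AP-1 subunits and partners had 7 and 3, and pancreatic lineage factors 8 and 4. In the same order the pairs after normalization were 7 and 12, 0 and 2, 4 and 5, and 7 and 4.

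The lowest such region near a SMAD target lay in an intron of PMEPA1, chr20:56273418-56274978, with a height of 5.56 and 5.66 in siControl and 3.34 and 3.44 in TGFβ (log2 difference after normalization −0.80, SE 0.16, limma adjusted p = 0.580). Its width was 1323 and 1312 bp against 1301 and 1183 bp, and it stood at 4.07 and 2.86 in NCT1 and NCT2. At the TSS of PMEPA1 the height was 3.59 and 3.805 against 2.64 and 2.70 while the width was 359 and 1046 bp against 2147 and 1224 bp. At TGFBI the region 199 bp from a TSS stood at 4.02 and 3.94 in siControl and 2.98 and 3.13 in TGFβ. CCN2 (connective tissue growth factor) had 4.24 and 4.06 against 3.27 and 3.48. SMAD3 was lower at 7 of 10 regions, the collagen receptor chain ITGA2 at 4 of 4, CD44 at 4 of 5 and VIM at 3 of 4. In the other direction, a region near SKI, a SMAD co-repressor, stood at 3.09 and 3.36 in siControl and 5.47 and 5.52 in TGFβ. The genes in this paragraph were picked after their heights were seen.

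**Figure D5:**
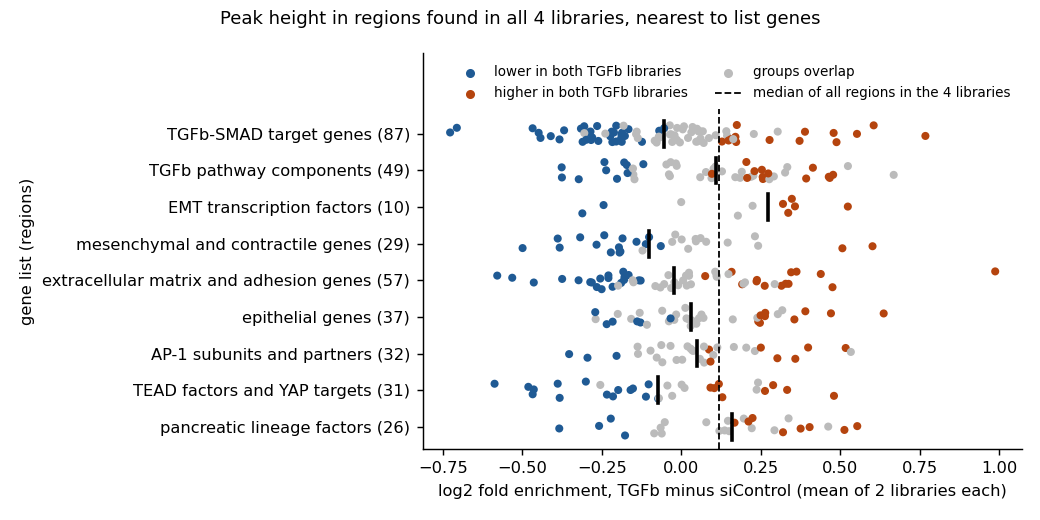
Difference in peak height (log2 fold enrichment, TGFβ minus siControl, mean of 2 libraries each) for regions found in all 4 libraries, 1 point per region, by gene list of the nearest gene (number of regions in brackets). Black bars are list medians and the dashed line is the median of all such regions, 0.12. Of the 87 regions near SMAD targets 33 are lower in both TGFβ libraries, and of the 29 near mesenchymal genes 15 are.

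Neighbouring regions were joined into clusters across gaps up to the distance customary for stitching super-enhancers. Clusters were larger in both TGFβ libraries in 8953 of 19537 cases (45.8%) and smaller in 43 (0.22%). With all peaks and this gap, the cluster with the largest difference covered the SMAD3 locus, chr15:67357166-67472149, with 3.56 and 8.53 kb of H3K27ac in siControl and 23.1 and 9.49 kb in TGFβ. One 269442 bp from SOX9, chr17:70386603-70515533, holds no coding TSS and had 6.20 and 9.55 kb against 24.2 and 11.6 kb. MBNL2, a splicing regulator, had 3.603 and 8.39 kb against 20.3 and 8.97 kb, TRIO 1.46 and 3.82 kb against 16.1 and 6.19 kb, and a cluster at PIP5KL1 7.06 and 12.3 kb against 21.9 and 14.0 kb. In each of the 5 the value of TGFβ replicate 2 lay nearer to siControl replicate 2 than to TGFβ replicate 1. With lists of equal length the first clusters lay instead at UACA (4.32 and 5.14 kb in siControl, 11.7 and 8.88 kb in TGFβ) and near BLID, and with a gap of 5000 bp near PACS1 (0 and 0.559 kb against 5.16 and 3.66 kb). The clusters with the largest decrease, near ANKRD10, RABL2A and SLC25A18, had means of 0.950, 2.50 and 0.763 kb in siControl and 0, 1.57 and 0 kb in TGFβ.

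H3K4me3, the mark of promoters and of some active enhancers, overlapped a larger share of the gained regions in both TGFβ libraries than in both siControl libraries with all peaks. Gained distal regions overlapped an H3K4me3 peak in 21.4% and 36.5% of cases in siControl and 48.4% and 42.1% in TGFβ, a difference of 16.3 percentage points (exact permutation p = 0.333). Distal regions found in all 4 libraries did so in 63.7% and 81.0% against 86.0% and 81.5%. Over all regions the shares were 52.7% and 62.0% against 66.2% and 62.6%, and at the 48 lost regions 18.8% and 22.9% against 29.2% and 22.9%. The H3K4me3 lists also differ in length, with 30770 and 35417 peaks in siControl and 39202 and 36308 in TGFβ. Gained proximal regions overlapped H3K4me3 in 59.7% and 65.8% against 73.4% and 68.9% (exact permutation p = 0.333), a difference of 8.35 points. With lists of equal length the groups overlapped there, at 65.7% and 70.7% against 71.7% and 70.0% (exact permutation p = 0.667). H3K27me3, the Polycomb mark, overlapped gained distal regions in 2.61% and 3.62% of cases in siControl and 2.87% and 3.09% in TGFβ, with overlapping groups. The 48 lost regions, of which 38 were distal, overlapped it in 37.5% and 45.8% against 37.5% and 33.3%. All regions stood between 5.63% and 7.12%, and distal regions found in all 4 libraries had a mean of 14.2% in both groups. With lists of equal length the 312 lost regions had means of 17.6% in siControl and 17.0% in TGFβ. Distal regions found in all 4 libraries then had a mean of 15.1% in both groups.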

How the data were processed

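H3K27ac, H3K4me3 and H3K27me3 were measured by ChIP-seq in PANC-1 cells. Per the labels and the study's methods, the authors trimmed reads with Trim Galore 0.4.1, aligned them to hg19 with Bowtie2 2.4.1, removed duplicates with Picard and called peaks per library against input with MACS2 2.2.7.1. The deposited lists give each peak's position, a display score, the fold enrichment over input (a ratio) and −log10 of the p and q values as MACS2 wrote them. The stated q threshold for H3K27ac is stricter than the lists, whose lowest −log10 q is 1.30. Read depth is unknown, so the precision of single peaks could not be given.

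Peaks of the 4 libraries were merged where they overlap, and the bp covered per library were computed in Python 3.11.15 (pandas 2.3.3, numpy 2.4.6). Distances and annotation used coding transcripts of GENCODE 44 on GRCh37. Width, promoter length (100 bp added before log2) and height were fitted in limma 3.58.1 (R 4.3.3) over all regions or genes, with Benjamini-Hochberg adjustment. Shares and covered lengths were compared with two-sided exact permutation tests over libraries. The limma fit was tested on simulated widths with 200 planted log2 changes of 1. At the observed spread between libraries it recovered 0% of them, and at a far smaller spread 93.5%. A lack of adjusted calls therefore cannot show a lack of change. Alternatives are in the closing section. The merged regions, gene lists and tests were chosen with earlier results of these data known. Genes were named as the 12 with most gained regions, the 6 longest gained proximal, gained distal, lost and most widened regions in both settings, up to 5 genes per list with the largest separated promoter difference, the 5 most increased and 3 most decreased clusters, and the members of counts of 5 or fewer. SMAD7, PMEPA1, CDH1, VIM and the genes named for height were added after their values were seen. Some items that this rule names are not reported here.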

Additional observations from a re-analysis of the deposited data

How the results depend on the processing

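Across 871 alternative values, 720 kept their direction or stayed within 1.5 times the main value, 123 moved further and 28 changed sign. Part of the 720 was fixed in advance. The 41 named promoters were picked for groups that do not overlap. Leaving out a library or keeping the replicate 2 pair alone could therefore not turn their sign. Read depth is unknown, each group has 2 libraries, and the lists differ in length, which limits every count. With lists of equal length there were 1348 gained regions (distal share 69.1%), 312 lost ones, 90 shorter promoters and 238 smaller clusters. The H3K4me3 difference at lost regions was then 0 percentage points, and those of H3K27me3 turned to 0.360 at gained proximal and 0.0537 at gained distal regions. The 50% strongest peaks gave 1901 gained regions (distal share 56.2%), 699 widened, 1 narrowed and 13 shorter promoters. The distal share was 77.3% with peaks up to 1000 bp apart joined, 77.4% with a TSS limit of 2000 bp and 80.1% with 1 TSS per gene. A 2000 bp promoter window left 3 shorter promoters. The causes were not tested.

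The following were chosen after seeing the data. The replicate 2 libraries alone gave 6482 gained, 5039 lost, 1140 widened and 926 narrowed regions, a distal share of 66.1% and 4709 shorter promoters. With the lists named NCT in place of the TGFβ libraries there were 47 gained regions (distal share 76.6%), 6 widened and 15 narrowed ones, 8 longer and 28 shorter promoters, and the covered length was lower than in siControl, by log2 −0.97 proximal and −0.79 distal. The sign of 19 of 41 named promoter differences turned, TGFBI to −0.48, PDGFB −0.45, SMAD4 −0.73, LTBP3 −1.21, PLAUR −0.77, ACTN1 −0.16, TPM2 −0.87, OCLN −0.22, MAFF −0.56, JUN −0.90, FOSL2 −1.85, ARHGEF17 −0.059, CRIM1 −0.61, TEAD3 −0.28, AMOTL2 −1.12, AJUBA −0.90, SOX9 −1.54, FOXA3 −0.66 and HES1 −1.82. NCT1, with 6004 peaks, enters all of these. NCT2 against siControl replicate 2 alone gave 11992 gained, 1534 lost, 4102 widened and 88 narrowed regions, and 11856 longer and 548 shorter promoters.

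Leaving out 1 library at a time gave 3435 to 14586 gained regions, 56 to 1161 lost, a distal share of 60.3% to 70.8%, 1213 to 4881 widened, 8 to 183 narrowed, 6890 to 12321 longer and 11 to 801 shorter promoters. Each omission also drops a condition from the rules for gained, lost, longer and shorter, which by itself favours higher counts. The H3K27me3 difference ranged from −1.37 to 0.928 points at gained proximal and from −0.64 to 0.376 at gained distal regions, positive only without siControl replicate 2. The limma width calls went from 0 to 688 without siControl replicate 2, where the lone sample is assumed to vary like the other group, and stayed at 0 without any other library. Centring each library on its median gave 13 width calls and a median log2 width of −0.12, and quantile normalization a median of −0.051 with 0 calls. The median log2 height was 0.12 without normalization. Taking all coding genes gave 4 promoter calls.

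The labels do not say whether same-numbered libraries belong together. Deviations of same-numbered libraries correlated at −0.25 for width, −0.11 for height and −0.20 for promoters. With 2 libraries per group this cannot settle the pairing. With the replicate block limma made 0 calls for width, 0 for promoters and 8 for height. A crossed pairing, added after seeing the data, gave 0 adjusted width calls and 4353 wider and 9 narrower regions at an unadjusted p of 0.05.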
